A study of Saccharomyces cerevisiae with 15 samples.

Results

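The 10 genes described here make NAD or bring in a precursor of it in budding yeast. They were *BNA1*, *BNA2*, *BNA3*, *BNA4*, *BNA5*, *BNA6*, *NPT1*, *NMA1*, *NMA2* and *TNA1*, found by symbol in the gene tables, and all 10 were present among 5712 features of the sense strand and among 5122 of the antisense strand. Stranded RNA-seq gave 15 libraries, from 3 independent cultures of each of 5 *Saccharomyces cerevisiae* strains in mid-log phase in rich glucose medium (YPAD). The strains were wild type (WT), *jhd2Δ*, *set1Δ*, a strain overexpressing Flag-tagged *SET1* and a strain overexpressing *SET1-G990E* in the same way. The comparisons ask how the steady-state RNA of these genes stood in each mutant. The deletion strains lack the histone H3 lysine 4 (H3K4) methyltransferase Set1 or the H3K4 demethylase Jhd2. The other mutants have Set1 or Set1-G990E in excess. The authors describe Set1-G990E as dominant and hyperactive, with more bulk H3K4 trimethylation and less monomethylation.

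All 5 strains are MATa and lack both chromosomal copies of the *HTA-HTB* histone gene pairs (*hta1-htb1Δ hta2-htb2Δ*), with *HTA1-HTB1* supplied on a centromeric *HIS3* plasmid, and carry the *lys2-128δ*, *his3Δ200* and *ura3-52* alleles. A KanMX cassette replaced *JHD2* or *SET1* in the deletion strains. The overexpressed alleles were driven by the constitutive *ADH1* promoter and integrated with a *URA3* marker, so the overexpression strains also carry a working *URA3*. The *jhd2Δ* strain was built in the parent of WT and the other strains in WT itself, and each strain was grown from 1 line, so the genotype and any other difference between lines cannot be told apart.

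The libraries held between 6903094 and 8947346 sense counts (median 7874153) and between 72664 and 106762 antisense counts (median 93191). The engineered genes followed their labels. *JHD2* ranged from 169 to 198 counts in WT and had 0, 0 and 2 in *jhd2Δ*. *SET1* had 822 to 908 counts in WT, 33 to 46 in *set1Δ* and 35966 to 42631 in the overexpression strains. *URA3* had 175 to 285 counts in WT and 1062 to 1479 in the overexpression strains.

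Yeast cells make NAD from tryptophan along the kynurenine or de novo pathway, and also reuse nicotinic acid and nicotinamide. In the de novo pathway Bna2 opens the tryptophan ring, Bna4, Bna5 and Bna1 carry kynurenine on to 3-hydroxyanthranilate and beyond, and Bna6 makes nicotinic acid mononucleotide, while Bna3 diverts kynurenine to kynurenic acid. Tna1 is the nicotinic acid permease of the plasma membrane, and Npt1 turns nicotinic acid into the same mononucleotide. Nma1 and Nma2 then adenylylate it, and the synthetase Qns1 completes NAD. Expression of several *BNA* genes and *TNA1* is known to be held down when NAD is plentiful by the NAD-dependent deacetylase Hst1, which works with the DNA-binding protein Sum1 and the linker Rfm1, a complex that also represses middle sporulation genes in growing cells.

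The sequence upstream of the genes was read for matches to known elements, because 3 of the genes rose in *set1Δ* and the other 7 did not, as their values show further on. The window ran from 250 bases before to 50 bases after the first base of the coding sequence, and all sequences are from the RefSeq assembly R64 (the sacCer3 sequence). TGACTC, the core word bound by the activators Gcn4 and Bas1, was searched on both strands. It was present in the windows of 6 of the 10 genes (60%), *BNA2*, *BNA4*, *BNA1*, *BNA6*, *TNA1* and *NMA1*, and in 479 of 6001 windows of all genes (7.98%). The matches are shown in 30-base windows read on the strand that spells the word, with the word in capitals. They lie at chrX:578834-578863 (minus strand, *BNA2*), chrII:39004-39033 (plus strand, *BNA4*), chrX:471775-471804 (plus strand, *BNA1*), chrVI:245267-245296 (minus strand, *BNA6*), chrVII:1012494-1012523 (minus strand, *TNA1*) and chrXII:784731-784760 (minus strand, *NMA1*).
BNA2: tcatatcggcgtTGACTCtttcttttattt
BNA4: cattcttagcacTGACTCttttttccgcca
BNA1: aatatgtttcagTGACTCacaatttatcct
BNA6: ccccatttatcaTGACTCctaccgcagttt
TNA1: caaatgcttaggTGACTCcattgtaaattt
NMA1: gaaatgaattacTGACTCtattaactatga

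The word began 129 bases before the start codon in *BNA4*, 121 in *BNA1*, 118 in *BNA6*, 170 in *NMA1* and 14 in *BNA2*. In *TNA1* it lay inside the coding sequence, at bases 22 to 27. It was on the gene's own strand in *BNA4* and *BNA6* and on the opposite strand in the other 4 genes. The genes with the word included the 3 that were higher in *set1Δ* (*BNA2*, *BNA4* and *TNA1*) and also *BNA1*, *BNA6* and *NMA1*, which were lower there.

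**Figure D1:**
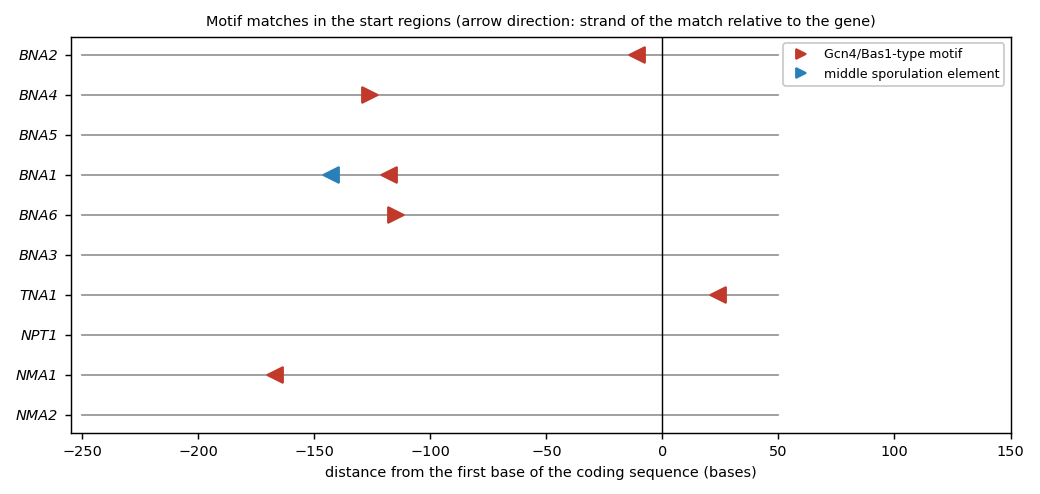
Matches to 2 known elements in the start regions of the 10 genes. The horizontal axis is the distance in bases from the first base of the coding sequence (vertical line), each grey line is the window searched, a red triangle marks TGACTC, a blue triangle marks a middle sporulation element, and the triangle points along the strand of the match relative to the gene. Of the 10 windows, 6 hold the red match and 1, that of *BNA1*, holds the blue one.

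The middle sporulation element, the word bound by Sum1, was searched as GNCACAAA or GNCGCAAA on both strands. Of the 10 genes only *BNA1* had a match (10%), the word GTCACAAA on the opposite strand starting 147 bases before the start codon, against 442 of 6001 windows of all genes (7.37%). The same search matched 8 of 11 windows (72.7%) of middle sporulation genes. No match says only that these letters were not in the window. The start regions of the 3 genes that rose in *set1Δ*, and of *BNA5*, which fell with *SET1* overexpression, are shown because their values carry most of the results. Each is on the gene's strand, with any TGACTC or its reverse complement in capitals. They are chrX:578610-578909 (plus strand, *BNA2*), chrII:38895-39194 (plus strand, *BNA4*), chrVII:1012235-1012534 (plus strand, *TNA1*) and chrXII:607070-607369 (minus strand, *BNA5*).
BNA2: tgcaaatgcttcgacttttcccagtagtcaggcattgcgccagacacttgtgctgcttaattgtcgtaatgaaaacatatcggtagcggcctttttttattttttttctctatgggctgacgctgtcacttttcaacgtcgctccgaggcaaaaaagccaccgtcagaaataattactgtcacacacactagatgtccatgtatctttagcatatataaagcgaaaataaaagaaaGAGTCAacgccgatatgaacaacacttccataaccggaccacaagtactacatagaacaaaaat
BNA4: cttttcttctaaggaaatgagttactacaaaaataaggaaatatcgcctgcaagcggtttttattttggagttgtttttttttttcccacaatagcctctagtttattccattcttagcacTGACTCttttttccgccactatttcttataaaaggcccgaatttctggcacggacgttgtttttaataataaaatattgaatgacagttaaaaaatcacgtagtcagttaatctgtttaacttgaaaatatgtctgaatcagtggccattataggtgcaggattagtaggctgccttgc
TNA1: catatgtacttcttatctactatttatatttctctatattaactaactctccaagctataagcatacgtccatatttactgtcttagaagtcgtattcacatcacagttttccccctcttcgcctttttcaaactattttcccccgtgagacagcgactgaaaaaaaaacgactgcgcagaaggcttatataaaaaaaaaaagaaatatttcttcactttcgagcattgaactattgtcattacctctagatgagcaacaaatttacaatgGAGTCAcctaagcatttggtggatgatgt
BNA5: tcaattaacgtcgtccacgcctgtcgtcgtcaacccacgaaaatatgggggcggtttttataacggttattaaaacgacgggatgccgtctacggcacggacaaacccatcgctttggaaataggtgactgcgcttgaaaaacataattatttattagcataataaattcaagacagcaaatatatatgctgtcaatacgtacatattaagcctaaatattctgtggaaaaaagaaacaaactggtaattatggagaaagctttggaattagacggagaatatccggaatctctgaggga

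In each of these 4 windows the start codon follows the first 250 bases, and no capital letters stand in that of *BNA5*.

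Values are normalized counts, that is counts scaled to a common library size by the TMM method, with the SD over 3 cultures. Tests are edgeR quasi-likelihood tests on the counts, with Benjamini-Hochberg adjusted p over 5619 sense or 2640 antisense features. A gene was called where the adjusted p was under 0.05 and the fold change at least 1.5, and "rose" and "fell" are kept for called changes. Several more genes passed the adjusted p alone with smaller changes. The 4 mutants were each compared with the same 3 WT libraries, so their values against WT are not independent of each other.

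Per kilobase of coding sequence, *NPT1* was the most abundant of the 10 genes in WT, at a mean of 2926 normalized counts per kb. *BNA1* (1281), *BNA3* (1174), *TNA1* (1011) and *BNA6* (715) followed. *BNA5* (374), *NMA1* (353), *NMA2* (284), *BNA4* (173) and *BNA2* (151 normalized counts per kb) were lower. *BNA2* and *BNA4* were thus the least abundant of the 10 per kb in WT.

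**Figure D2:**
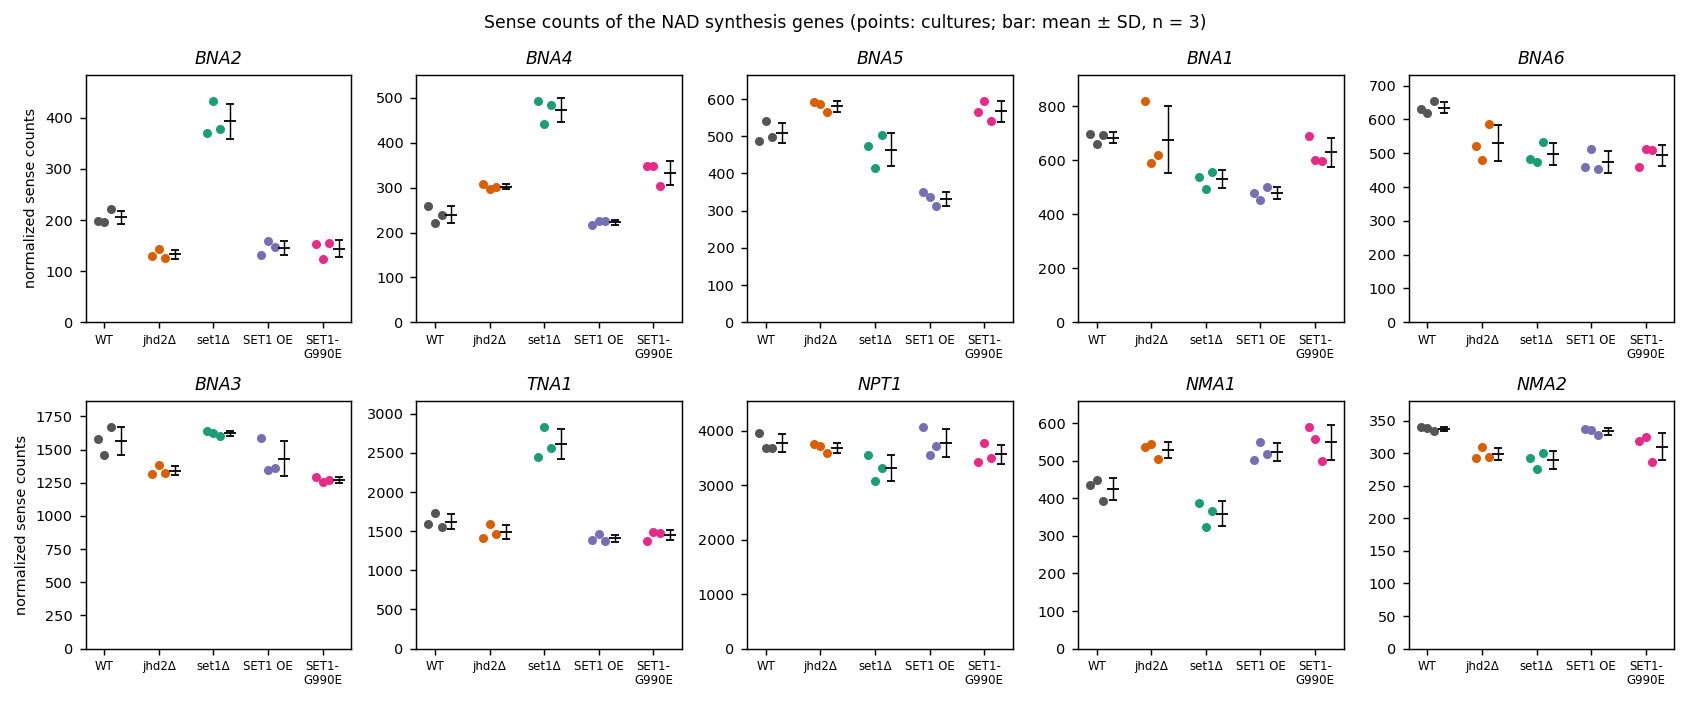
Normalized sense counts of the 10 genes (vertical axes, from 0) in the 5 strains, with a point per culture and a bar for the mean ± SD (n = 3). The *set1Δ* points stand above all others in *BNA2*, *BNA4* and *TNA1*, and the *SET1* overexpression points (SET1 OE) stand below all others in *BNA5*.

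*BNA2*, *BNA4* and *TNA1* rose in *set1Δ*, and none of the 10 genes fell. On the sense strand 5.87% of all features tested were called up in *set1Δ* and 2.71% were called down, beside 3 and 0 of these 10. At any fold 3 genes were higher and 5 lower (*BNA1*, *BNA6*, *NPT1*, *NMA1* and *NMA2*), where 22.1% of all features passed the adjusted p as higher and 20.3% as lower. The median log2 change of the 10 genes was -0.16, below the median of all features. At an unadjusted p under 0.05 the counts were also 3 and 5. The 8 at any fold became 5 without WT replicate 2 or *set1Δ* replicate 2. In RNA from whole cultures, more RNA per cell and more cells with the RNA cannot be told apart.

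*BNA2* (YJR078W, chromosome X, 578860 to 580221, plus strand) encodes tryptophan 2,3-dioxygenase, the first enzyme of the pathway. Its normalized counts were 198, 196 and 221 in WT, 129, 143 and 127 in *jhd2Δ* and 369, 433 and 378 in *set1Δ*. They were 131, 158 and 148 with *SET1* overexpression and 153, 125 and 155 with *SET1-G990E*. Every *set1Δ* library was above every WT library, and every library of the other 3 mutants was below every WT library. *BNA2* rose in *set1Δ* by a log2 change of 0.94 (SE 0.096, 1.92-fold, adjusted p = 7.8e-07, edgeR). It fell in *jhd2Δ* by 0.63 on the log2 scale (SE 0.11, 1.54-fold lower, adjusted p = 0.00011, edgeR). Set directly against *jhd2Δ*, *set1Δ* was 2.96-fold higher (log2 1.57, SE 0.1, adjusted p = 3.5e-09, edgeR), rank 13 by p among all features.

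The *BNA2* call in *jhd2Δ* rests on a value close to the 1.5-fold limit, and without WT replicate 3 its log2 change was -0.56 and the call was lost. In the overexpression strains *BNA2* passed the adjusted p without reaching 1.5-fold, at -0.50 (SE 0.11) with *SET1* and -0.51 (SE 0.11) with *SET1-G990E*. The *SET1-G990E* and *SET1* overexpression strains had overlapping *BNA2* values, with a log2 difference of -0.01 (95% interval -0.23 to 0.20).

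The neighbour *YJR079W* overlaps the end of *BNA2* by 17 bp on the same strand, and a read counts for a gene once it overlaps by 1 bp, so some reads may count for both. Its log2 change was -0.75 in *jhd2Δ* (adjusted p = 0.017, edgeR), 0.65 in *set1Δ* (adjusted p = 0.016, edgeR) and 1.40 between *set1Δ* and *jhd2Δ* (adjusted p = 0.00011, edgeR), the same signs as *BNA2*. On the other side *MIR1*, the mitochondrial phosphate carrier, is divergent from *BNA2* with 669 bp between them, and changed by 0.32 in *set1Δ* and -0.03 in *jhd2Δ*. Whether reads of one transcript were counted for both *BNA2* and *YJR079W* was not tested.

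*BNA4* (YBL098W, chromosome II, 39145 to 40527, plus strand) encodes kynurenine 3-monooxygenase, which hydroxylates kynurenine. It had 258, 222 and 240 normalized counts in WT, 307, 297 and 301 in *jhd2Δ*, and 493, 442 and 485 in *set1Δ*. With *SET1* overexpression it had 216, 226 and 225, and with *SET1-G990E* 349, 348 and 303. Unlike *BNA2*, it was higher than every WT library in all 3 *jhd2Δ* libraries too. *BNA4* rose in *set1Δ* by a log2 change of 0.98 (SE 0.078, 1.97-fold, adjusted p = 4.8e-08, edgeR), rank 27 by p among all features. The change in *jhd2Δ* was 0.33 (SE 0.081, adjusted p = 0.0026, edgeR), under 1.5-fold, and *set1Δ* stood above *jhd2Δ* by 0.65 (SE 0.076, adjusted p = 3.6e-06, edgeR), which was called. The upstream neighbour *ATP1*, on the same strand 454 bp away, had a log2 change of 0.00 in *set1Δ*. *ATP1* was lower in *jhd2Δ* (-0.35, adjusted p = 0.001, edgeR), with *SET1* overexpression (-0.40, adjusted p = 0.00043, edgeR) and with *SET1-G990E* (-0.49, adjusted p = 3.9e-05, edgeR). The downstream neighbour *BRN1*, on the same strand 303 bp away, was higher in *set1Δ* (0.46, adjusted p = 0.02, edgeR), *jhd2Δ* (0.54, adjusted p = 0.006, edgeR) and *SET1-G990E* (0.62, adjusted p = 0.0017, edgeR), the same directions as *BNA4*. With *SET1* overexpression *BRN1* was at 0.31 (adjusted p = 0.12, edgeR) and *BNA4* at -0.11, and neither passed.

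*TNA1* (YGR260W, chromosome VII, 1012485 to 1014089, plus strand), the nicotinic acid permease, had 1585, 1728 and 1554 normalized counts in WT and 1417, 1592 and 1459 in *jhd2Δ*. In *set1Δ* it had 2448, 2826 and 2565. It had 1384, 1460 and 1378 with *SET1* overexpression and 1376, 1495 and 1480 with *SET1-G990E*. The *set1Δ* libraries did not overlap any other strain, while the WT and *jhd2Δ* libraries overlapped. *TNA1* rose in *set1Δ* by 0.69 on the log2 scale (SE 0.065, 1.61-fold, adjusted p = 3.3e-07, edgeR). Its change in *jhd2Δ* was -0.12 (95% interval -0.25 to 0.00, adjusted p = 0.14, edgeR), and *set1Δ* was 1.75-fold above *jhd2Δ* (adjusted p = 4.8e-08, edgeR).

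**Figure D3:**
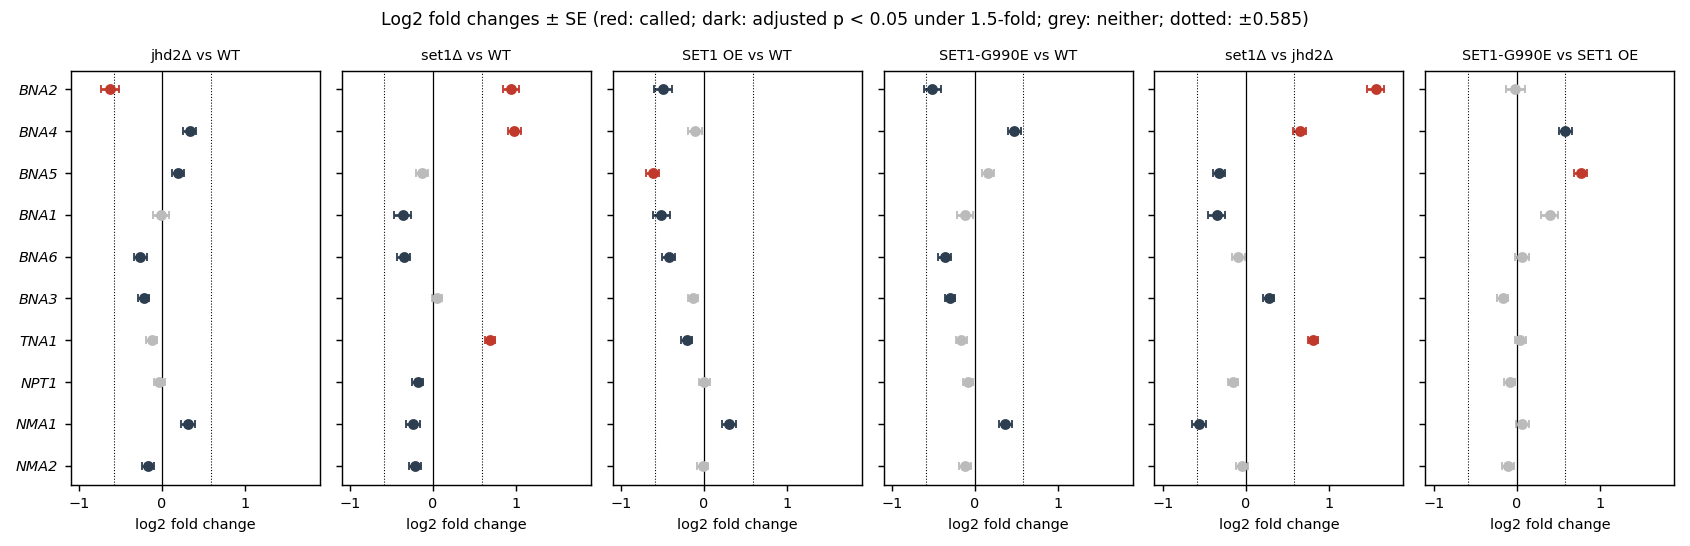
Log2 fold changes of the 10 genes on the sense strand (horizontal axes) in 6 comparisons, with bars of 1 SE. Red points were called (adjusted p < 0.05 and at least 1.5-fold), dark points passed the adjusted p under 1.5-fold, grey points did neither, and dotted lines mark 1.5-fold in each direction. Red points on the right are *BNA2*, *BNA4* and *TNA1* in both *set1Δ* panels and *BNA5* in the panel of *SET1-G990E* against *SET1* overexpression; those on the left are *BNA2* in *jhd2Δ* and *BNA5* with *SET1* overexpression.

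The remaining enzymes of the de novo route did not rise in *set1Δ*. *BNA5* (YLR231C, chromosome XII, 605758 to 607119, minus strand) encodes kynureninase, which cleaves hydroxykynurenine to hydroxyanthranilate. It had 489, 540 and 498 normalized counts in WT, 593, 586 and 565 in *jhd2Δ* and 474, 415 and 503 in *set1Δ*. With *SET1* overexpression it had 350, 335 and 312, the lowest values of any strain, and with *SET1-G990E* 564, 595 and 541. Its *set1Δ* values overlapped WT (log2 -0.13, 95% interval -0.28 to 0.01).

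*BNA5* fell with *SET1* overexpression, by 0.62 on the log2 scale (SE 0.078, 1.53-fold lower, adjusted p = 6.4e-06, edgeR). It was the only gene of the 10 called there, where 3.88% of all features were called down and 3.81% up. Being near 1.5-fold, the call was lost without WT replicate 2 (-0.55) or *SET1* overexpression replicate 3 (-0.57). At any fold 5 genes were lower (*BNA2*, *BNA5*, *BNA1*, *BNA6* and *TNA1*) and 1 was higher (*NMA1*), where 16.7% of all features passed as lower and 18% as higher.

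With *SET1-G990E*, *BNA5* did not differ from WT past the threshold (log2 0.16, SE 0.073, adjusted p = 0.095, edgeR), and *SET1-G990E* stood 1.71-fold above *SET1* overexpression (log2 0.77, SE 0.077, adjusted p = 2.4e-05, edgeR). These 2 strains differed little over the genome, with 13 of 5619 sense features called, 11 up (0.196%) and 2 down (0.0356%), and 0.872% higher and 0.801% lower at any fold. *BNA5* ranked 2 by p among all features in that comparison. *BNA4* ranked 7, at a log2 difference of 0.58 (SE 0.081, adjusted p = 0.00082, edgeR), just under the 1.5-fold limit, and the 3 *SET1-G990E* libraries were all above the 3 *SET1* overexpression libraries. DESeq2, DESeq2's size factors and a stricter count filter each put *BNA4* over the limit, at 0.59, and leaving out single libraries moved it between 0.55 and 0.65. *BNA1* was next among the 10 genes (0.40, SE 0.1, adjusted p = 0.055, edgeR), and *BNA2*, *BNA6*, *TNA1*, *NPT1* and *NMA1* had overlapping libraries. For *BNA3* and *NMA2* all *SET1-G990E* libraries were below all *SET1* overexpression libraries, and neither gene passed the adjusted p.

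*BNA1* (YJR025C, chromosome X, 471138 to 471671, minus strand), the 3-hydroxyanthranilate dioxygenase that leads to quinolinate, had 697, 661 and 694 normalized counts in WT. It had 820, 590 and 621 in *jhd2Δ*, a wide spread that covered the WT values. It had 539, 495 and 559 in *set1Δ*, 480, 455 and 500 with *SET1* overexpression and 691, 601 and 598 with *SET1-G990E*. The *set1Δ* and *SET1* overexpression libraries were all below WT, with log2 changes of -0.37 (SE 0.1, adjusted p = 0.0067, edgeR) and -0.52 (SE 0.1, adjusted p = 0.00052, edgeR), neither of them reaching 1.5-fold. The *SET1-G990E* libraries overlapped WT, at -0.12 (adjusted p = 0.34, edgeR).

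*BNA6* (YFR047C, chromosome VI, 244279 to 245166, minus strand), the quinolinate phosphoribosyltransferase, had its highest libraries in WT, at 631, 620 and 654 normalized counts. It had 520, 481 and 587 in *jhd2Δ* and 482, 474 and 534 in *set1Δ*. With *SET1* and *SET1-G990E* overexpression it had 458, 512 and 452 and 458, 514 and 510. No library of any mutant reached the lowest WT library, and the log2 changes ran from -0.26 in *jhd2Δ* to -0.42 with *SET1* overexpression. All 4 passed the adjusted p (0.00039 to 0.011, edgeR), and none reached 1.5-fold. The mutants overlapped each other.

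*BNA3* (YJL060W, chromosome X, 323386 to 324720, plus strand), the kynurenine aminotransferase of the side branch, had 1577, 1456 and 1668 normalized counts in WT and 1637, 1629 and 1603 in *set1Δ*, which overlapped. It was at 1320, 1382 and 1323 in *jhd2Δ* (log2 -0.22, adjusted p = 0.0076, edgeR) and at 1297, 1254 and 1268 with *SET1-G990E* (log2 -0.30, adjusted p = 0.00081, edgeR), below every WT library. The *SET1* overexpression libraries, at 1585, 1347 and 1365, overlapped WT.

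Of the salvage and common steps, *NPT1* (YOR209C, chromosome XV, 736437 to 737726, minus strand), the nicotinate phosphoribosyltransferase that acts on the acid Tna1 brings in, ran from 3678 to 3958 normalized counts in WT and from 3078 to 3562 in *set1Δ*. Its *set1Δ* change was -0.19 on the log2 scale (SE 0.065, adjusted p = 0.029, edgeR), and the other mutants overlapped WT. *NPT1* was the only gene of the 10 that did not pass the edgeR F test for any difference among the 5 strains (adjusted p = 0.081), a test that 9 of the 10 genes and 63.7% of all features passed.

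*NMA1* (YLR328W, chromosome XII, 784913 to 786118, plus strand), an adenylyltransferase of nicotinic acid mononucleotide, ran opposite to *BNA2*. It had 435, 450 and 393 normalized counts in WT, against 388, 323 and 366 in *set1Δ*. It had 538, 545 and 506 in *jhd2Δ*, 502, 551 and 518 with *SET1* overexpression and 589, 559 and 499 with *SET1-G990E*. All libraries of the latter 3 mutants were above WT and all of *set1Δ* were below it, with log2 changes of 0.31, 0.30, 0.37 and -0.25 (adjusted p = 0.0039, 0.0079, 0.0011 and 0.026, edgeR), none of them reaching 1.5-fold. Between *set1Δ* and *jhd2Δ* the difference was -0.56 (SE 0.083, adjusted p = 4.6e-05, edgeR), also under the limit. Without *jhd2Δ* replicate 3 or *set1Δ* replicate 1 it passed the limit.

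*NMA2* (YGR010W, chromosome VII, 511545 to 512732, plus strand) encodes another enzyme with the role of Nma1. It ran from 334 to 340 normalized counts in WT, from 293 to 310 in *jhd2Δ* and from 275 to 301 in *set1Δ*. With *SET1* overexpression it ran from 328 to 338, which overlapped WT. With *SET1-G990E* it ran from 286 to 325, below every WT library, without passing the adjusted p. The log2 changes were -0.17 in *jhd2Δ* (adjusted p = 0.049, edgeR) and -0.22 in *set1Δ* (adjusted p = 0.017, edgeR), so in *jhd2Δ* the paralogs stood on opposite sides of WT. The coding sequences of *NMA1* and *NMA2* were identical at 72.1% of 1182 aligned bases, and their longest identical run was 25 bases.

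In *jhd2Δ* 1 of the 10 genes was called down (*BNA2*) and 0 were called up, where 5.27% of all sense features were called down and 6.94% up. At any fold 3 were higher (*BNA4*, *BNA5* and *NMA1*) and 4 lower (*BNA2*, *BNA6*, *BNA3* and *NMA2*), where 21.5% of all features passed as higher and 23.4% as lower. These 7 became 3 without WT replicate 3 and 4 without *jhd2Δ* replicate 2. With *SET1-G990E* 0 of 10 were called by edgeR or DESeq2, where 6.66% of all features were called up and 5.32% down, and 7 of 10 had an unadjusted p under 0.05. At any fold 2 were higher (*BNA4* and *NMA1*) and 3 lower (*BNA2*, *BNA6* and *BNA3*), where 22.2% passed as higher and 22.5% as lower. Between *set1Δ* and *jhd2Δ* 3 were called up (*BNA2*, *BNA4* and *TNA1*), where 5.02% of all features were called up and 3.29% down. At any fold 4 were higher there and 3 lower, where 20.8% and 19.5% of all features passed.

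Over the 15 libraries, *BNA2* and *TNA1* followed each other most closely of all pairs of the 10 genes (Pearson r = 0.95 of log2 normalized counts), and *BNA2* ran most opposite to *NMA1* (r = -0.92). *BNA4* was less close to *TNA1* (0.75) and to *BNA2* (0.65), and *BNA5* was closest to *BNA1* (0.77). These values describe 15 libraries of 5 strains with 3 cultures each and are given without a test. Among all other sense features, those most like *BNA2* were *FLO1* (0.98), *SUL1* (0.96), *ATG26* (0.96), *PRE3* (0.96) and *GLG2* (0.96). Those most like *TNA1* were *FLO1* (0.98), *YPK2* (0.97), *CDC48* (0.96), *SNC1* (0.96) and *ILS1* (0.96). *FLO1*, a flocculin with close paralogs whose reads may be shared, changed by 2.77 in *set1Δ* and -0.89 in *jhd2Δ* on the log2 scale, larger than *BNA2* in both. A correlation does not measure the size of a change. Besides *FLO1*, the genes most like *BNA2* changed in *set1Δ* by between 0.26 (*PRE3*) and 1.54 (*SUL1*). Those most like *TNA1* changed there by between 0.16 (*ILS1*) and 0.73 (*YPK2*).

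Antisense reads on the 10 genes were few. Summed over the 15 libraries they were between 13 (*NPT1*) and 301 (*NMA2*) counts a gene, or between 0.0239% and 6.37% of the gene's sense counts. Of the 10 genes, 4 had enough antisense counts to be tested (*BNA5*, *BNA3*, *NMA2* and *TNA1*). *BNA2* had 1 to 10 and *BNA4* 0 to 9 antisense counts a library, too few for the test.

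*TNA1* antisense fell in both deletion strains and was the only antisense call among the 10 genes. Its raw counts were 34, 29 and 24 in WT, 11, 5 and 15 in *jhd2Δ* and 7, 8 and 7 in *set1Δ*. It had 28, 14 and 14 counts with *SET1* overexpression and 22, 28 and 26 with *SET1-G990E*. All libraries of both deletions were below all WT libraries, and those of *SET1* and *SET1-G990E* overexpression overlapped WT in part. The log2 changes were -1.36 in *jhd2Δ* (SE 0.30, adjusted p = 0.0007, edgeR) and -1.51 in *set1Δ* (SE 0.33, adjusted p = 0.00032, edgeR), where 3.41% and 5.38% of antisense features tested were called down.

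**Figure D4:**
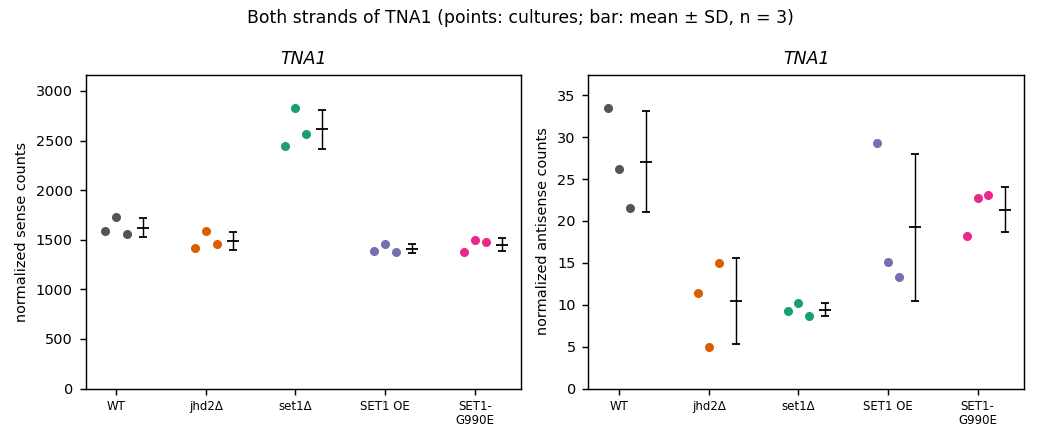
Normalized counts of *TNA1* on the sense strand (left) and the antisense strand (right) in the 5 strains, with a point per culture and a bar for the mean ± SD (n = 3). On the sense strand the *set1Δ* cultures stand alone at the top, and on the antisense strand the *jhd2Δ* and *set1Δ* cultures are both below WT.

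The strands of *TNA1* thus did not mirror each other over the strains. In *set1Δ* the sense strand rose and the antisense strand fell, while in *jhd2Δ* the antisense strand fell with a sense change of -0.12 that did not pass. On the antisense strand *set1Δ* and *jhd2Δ* differed by -0.15 (95% interval -0.96 to 0.66, adjusted p = 0.86, edgeR), too wide an interval to say that they were alike. The convergent neighbour *APL6* ends 231 bp from *TNA1* on the opposite strand. The sense RNA of *APL6* changed by -0.04 in *jhd2Δ* (adjusted p = 0.58, edgeR) and by 0.20 in *set1Δ* (adjusted p = 0.0035, edgeR). Where the antisense reads came from, and any link between the strands, was not tested. The other 3 tested genes did not pass on the antisense strand in any comparison, with log2 changes against WT between -0.62 and 0.46. In the other 4 comparisons none of the 4 tested genes was called by edgeR on that strand, with 2 unadjusted p values under 0.05 among them, where 3.52% of antisense features were called with *SET1* overexpression, 6.74% with *SET1-G990E*, 13.7% between the deletions and 0.833% between the overexpression strains.

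The other genes of NAD metabolism were read from lists of known members. *BNA7*, the kynurenine formamidase and the only other de novo gene, had a log2 change of -0.42 in *set1Δ* (SE 0.1, adjusted p = 0.0037, edgeR) and was not called in any comparison. Its normalized counts were 167, 177 and 176 in WT and 128, 117 and 145 in *set1Δ*, with every *set1Δ* library below every WT library. Of the pathway's last steps, neither *QNS1* (-0.31 in *jhd2Δ*) nor *POF1* was called in any comparison. Of 3 other transporters (*NRT1*, *YIA6* and *YEA6*) and 3 NAD kinases (*UTR1*, *YEF1* and *POS5*), none was called by edgeR in any of the 6 comparisons. Their log2 changes ran from -0.56 to 0.37, and 9 of these 36 tests had an unadjusted p under 0.05. *YEF1* passed the adjusted p as lower in *jhd2Δ*, with *SET1* overexpression and with *SET1-G990E* (-0.48, -0.56 and -0.48, adjusted p = 0.0027, 0.0013 and 0.0023, edgeR). So did *NRT1* in *jhd2Δ* (-0.33, adjusted p = 0.012, edgeR). *POS5* passed as higher in *set1Δ* (0.19, adjusted p = 0.022, edgeR). Between the deletions 2 of the kinases passed as higher in *set1Δ*. Per comparison, between 0.231% (*SET1-G990E* against *SET1* overexpression) and 12.2% (*jhd2Δ* against WT) of all sense features were called in either direction. At any fold 1.67% and 44.9% of all sense features passed the adjusted p in those 2 comparisons. The share of all features at an unadjusted p under 0.05 was not computed.

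Of 6 further salvage genes, *PNC1* alone was called, down in 3 mutants in which 5.27% (*jhd2Δ*), 3.88% (*SET1* overexpression) and 5.32% (*SET1-G990E*) of all features were called down. *PNC1* encodes the nicotinamidase, which turns nicotinamide into the nicotinic acid that Npt1 uses, and is known to respond to stress. It had 9054, 9025 and 9015 normalized counts in WT, 5500, 4861 and 5136 in *jhd2Δ* and 6439, 7307 and 6617 in *set1Δ*. With *SET1* overexpression it had 5605, 5303 and 5078, and with *SET1-G990E* 5541, 5223 and 4886. WT was above every mutant library, and *PNC1* fell by 0.81 in *jhd2Δ*, 0.76 with *SET1* overexpression and 0.79 with *SET1-G990E* on the log2 scale (SE 0.066 for each, adjusted p = 2.7e-08, 1.4e-07 and 2.9e-08, edgeR). The change in *set1Δ* was -0.41, under 1.5-fold. The next largest change against WT among these salvage genes was that of the nucleoside hydrolase gene *URH1* in *jhd2Δ*, at 0.51 (SE 0.078, adjusted p = 2.8e-05, edgeR), under 1.5-fold.

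Of the 5 NAD-dependent deacetylases, *SIR2*, the deacetylase of silent chromatin, was called, and *HST1*, *HST2*, *HST3* and *HST4* were not. It was called up in 3 mutants in which 6.94% (*jhd2Δ*), 5.87% (*set1Δ*) and 6.66% (*SET1-G990E*) of all features were called up. *SIR2* had 141, 134 and 158 normalized counts in WT, 306, 330 and 285 in *jhd2Δ* and 237, 243 and 211 in *set1Δ*. It rose by 1.09 in *jhd2Δ* (SE 0.087, adjusted p = 2.1e-08, edgeR), by 0.68 in *set1Δ* (SE 0.092, adjusted p = 1.5e-05, edgeR) and by 0.71 with *SET1-G990E* (SE 0.089, adjusted p = 3.5e-06, edgeR), and its change with *SET1* overexpression was 0.52. All mutants lay above WT in every library.

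The genes of the Sum1 complex were not called against WT. *HST1* had 789, 807 and 674 normalized counts in WT and 752, 682 and 698 in *set1Δ* (log2 -0.09, 95% interval -0.23 to 0.05). *SUM1* was at -0.22 in *set1Δ* (SE 0.059, adjusted p = 0.0067, edgeR), under 1.5-fold. *RFM1* had 125, 139 and 144 in WT, with *set1Δ* below it at 113, 107 and 94.2 and *jhd2Δ* above it at 194, 162 and 178. It was called between the deletions, where *set1Δ* was 1.70-fold lower (log2 -0.76, SE 0.11, adjusted p = 2e-05, edgeR), and its *set1Δ* change against WT was -0.38 (SE 0.11, adjusted p = 0.0099, edgeR).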

How the data were processed

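RNA from 15 cultures was sequenced with a stranded kit after removal of ribosomal RNA. The authors aligned reads with Novoalign 2.8.1 to sacCer3 and known splice junctions, and the deposited counts are the raw numbers of sense or antisense alignments per gene, counted with USeq. The other deposited number used, the authors' total length in base pairs, gave the values per kb. The authors' FPKM, regularized log2 values, ratios and adjusted p between strains were not used. The 10 genes and all lists were chosen with earlier results of these data known, so their counts are descriptions.

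Each strand was scaled by TMM and filtered (filterByExpr, min.count 10), leaving 5619 sense and 2640 antisense features, and fitted with edgeR 4.0.16 (glmQLFit and glmQLFTest in R 4.3.3, limma 3.58.1) over all 15 libraries with a mean per strain. The fit was tested on simulated data. The biological coefficient of variation over all features (square root of the common dispersion) was 0.0673 for sense and 0.0799 for antisense. Alternatives were DESeq2 1.42.0, its size factors, other filters, glmTreat, only the strains compared, a replicate block, sense library sizes for antisense counts and leaving out each library. Named were the 10 genes, called genes of the lists (at most 4 a list and comparison), genes needed to follow the pathway, the 5 features most like each of the 2 members with the smallest F test p, and neighbours; *SPO20* and the uncalled genes with values were named after they were seen. RefSeq R64 gave the same start and end for 5587 of 5607 sense features with a locus tag. Python 3.11.15, numpy 2.4.6, pandas 2.3.3 and matplotlib 3.10.9 made tables and figures.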

Additional observations from a re-analysis of the deposited data

How the results depend on the processing

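The 11 called results of the 10 genes were recomputed under each alternative, giving 241 values in all. Of these, 232 kept the call and direction, 9 lost the call and 0 changed sign. Most of the 241 come from leaving out 1 library, often of a strain outside the comparison. Such a library could move a call only through the shared fit, so the pooled count overstates how firm the calls are. The test against a 1.5-fold null (glmTreat) left 0 genes in *jhd2Δ* against WT, 0 with *SET1* overexpression, 0 between *SET1-G990E* and *SET1* overexpression and 0 on the antisense strand in *jhd2Δ*, where edgeR had called 1 each. It also lost *TNA1* in *set1Δ* (adjusted p = 0.46) and *BNA4* between the deletions, and kept *BNA2* (adjusted p = 0.013) and *BNA4* (adjusted p = 0.0011) in *set1Δ*. DESeq2, its size factors and the strict filter (50 counts in 3 libraries) each gave 2 genes between *SET1-G990E* and *SET1* overexpression, *BNA5* and *BNA4*. Under the strict filter no antisense member was tested. DESeq2 gave no adjusted p to some antisense members, so those counts have no DESeq2 value. Among these was *TNA1* in *jhd2Δ*, so that antisense call has no DESeq2 check. In *set1Δ* the antisense change of *TNA1* was -1.52 (adjusted p = 0.012, DESeq2). Leaving out 1 library, the adjusted p of the *jhd2Δ* antisense call reached 0.041 (edgeR).

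Leaving out 1 library, the genes called numbered 0 to 1 in *jhd2Δ* (3 to 7 at any fold), 3 in *set1Δ* (5 to 8), 0 to 1 with *SET1* overexpression (5 to 6), 0 with *SET1-G990E* (5 to 6), 3 to 4 between the deletions (6 to 8) and 1 to 2 between the overexpression strains (2 to 3). Between the overexpression strains *BNA4* joined without *set1Δ* replicate 3, *SET1* replicate 2 or 3, or *SET1-G990E* replicate 3 (log2 0.59 to 0.65). Any-fold counts were lowest in *jhd2Δ* without WT replicate 3 (3) and *jhd2Δ* replicate 2 (4), and in *set1Δ* without WT replicate 2 or *set1Δ* replicate 2 (5).

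No source says that a replicate number marks a shared day or batch. Same-numbered libraries of different strains had correlations of sense deviations from -0.23 to 0.34 (median 0.11, 16 of 30 pairs over 0.1), against a median of -0.03 for different numbers, and 10 of 15 libraries correlated best with their own number, a hint of pairing that not every pair shows. The pairing was therefore not used. With the number as a replicate block the sense calls were 1, 3, 1 and 0 against WT, 3 between the deletions and 1 between the overexpression strains, as without it.

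Antisense counts limit what was seen: 6 of the 10 genes had too few to test, and *TNA1* rests on 5 to 34 counts a library.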

Other observations

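The middle sporulation genes, which the Sum1 complex also represses, were read in the same fits. Of 11 listed, 10 were tested, and 5 of them rose in *set1Δ* while 0 fell by edgeR (1 was lower at an unadjusted p under 0.05). The background was 5.87% of features called up and 2.71% called down. *CDA1*, a chitin deacetylase of the spore wall, had 23, 22 and 29 counts in WT and 57, 90 and 75 in *set1Δ*, a log2 rise of 1.79 (SE 0.21, adjusted p = 3.5e-06, edgeR). *SPR28*, a septin of sporulation, had 10, 13 and 19 counts in WT and 36, 45 and 33 in *set1Δ*, a rise of 1.64 (SE 0.25, adjusted p = 4.4e-05, edgeR). *SPS1*, *SPR3* and *SPO20* rose by 0.90, 0.83 and 0.81. The other 5 ran from -0.91 (*SMK1*, adjusted p = 0.067, edgeR) to 0.13 (*SPS2*), and *NDT80*, the activator of this class, was at -0.33 (adjusted p = 0.14, edgeR).

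The list's median log2 change in *set1Δ* was 0.47, and that of the 10 NAD synthesis genes was -0.16. In *jhd2Δ* 1 of the 10 rose, *SPS4* (0.75, SE 0.21, adjusted p = 0.0073, edgeR), and 0 fell. There 6.94% of all features were called up and 5.27% down, so this count is near the background. Between *set1Δ* and *jhd2Δ* 5 of the 10 were called up and 1 down, where 5.02% and 3.29% of all features were called. All 10 are low in growing cells, so these values rest on few counts.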
